A study of Mus musculus with 207 samples.

Results

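The 44 genes described here encode the lysosomal hydrolases, their activator proteins, the subunits of the vacuolar proton pump, 6 lysosomal membrane proteins, and the transcription factors Tfeb and Tfe3. They were chosen by name, not by their values. Of these 44 genes 42 were measured, each by its brightest probe set, that is, the one with the highest mean signal over all mice among the probe sets given that 1 gene symbol. The array annotation lists no probe set with the single symbol Atp6v0c or Cd63, and these genes were not analysed here. The 42 genes are 18 hydrolases, 2 activator proteins, 15 pump subunits, 5 membrane proteins and 2 transcription factors, out of 18193 genes on the array, of which 10868 were tested. All 42 passed the filter on low signals, which asked for 78 units of signal in 69 of the 207 mice.

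The signals came from cultured bone marrow macrophages of the F2 generation of an intercross of the strains AKR and DBA/2, all deficient in apoE, on 1 Affymetrix 430v2 array per mouse. Of the 207 mice 93 were female and the others male, all 16 weeks old, and no mice with apoE were analysed here. The bone marrow cells had been in culture for 2 weeks with L-cell conditioned medium, the usual source of macrophage colony stimulating factor. Each mouse carries its own mixture of the parental alleles, and the genotypes were not used here, because nothing in the files ties a genotyped mouse to its array.

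A lysosome is kept acidic by the vacuolar proton pump, whose V1 sector hydrolyses ATP in the cytosol while the V0 sector carries protons through the membrane. The hydrolases work in that acid lumen, most reach it by the mannose 6-phosphate receptors, and loss of single hydrolases causes lysosomal storage diseases. Tfeb and Tfe3 are basic helix-loop-helix factors known to bind the palindrome CACGTG upstream of many of these genes, within an extended form called the CLEAR element. In bulk RNA, fewer cells of a type and less RNA per cell cannot be told apart.

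A RefSeq promoter sequence of GRCm38.p6 (250 bases before and 50 after the start) was found for 36 of the 42 measured genes, and 12 of the 36 (33.3%) held the hexamer CACGTG, which reads the same on both strands. Of all 27025 genes with such a sequence, 8.09% held it. The longer TCACGTGA, which contains the hexamer, stood in 6 of the 36 (16.7%, and 1.12% of all genes), namely Atp6v0d1, Atp6v0e, Atp6v1a, Cln3, Gla and Mcoln1. The form GTCACGTG, searched on both strands and overlapping the other forms, stood in 9 of the 36 (25%, and 2.55% of all genes). The 10-base form of the element, with GT before and AC after the hexamer, stood only in Cln3 among the 36, and in 0.370% of all genes. The 6 stretches printed here are shown because they hold more than 1 copy of the hexamer or belong to genes whose signals are described next. Capitals mark each CACGTG, and the sequences run 5′ to 3′ on the strand of the gene.
Lamp1 (chr8:13159080-13159160, plus strand): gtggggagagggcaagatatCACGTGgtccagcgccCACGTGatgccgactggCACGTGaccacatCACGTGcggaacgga
Mcoln1 (chr8:3500428-3500499, plus strand): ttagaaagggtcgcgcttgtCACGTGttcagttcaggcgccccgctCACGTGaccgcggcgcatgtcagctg
Cln3 (chr7:126583332-126583405, minus strand): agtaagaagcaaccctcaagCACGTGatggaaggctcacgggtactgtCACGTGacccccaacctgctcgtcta
Gla (chrX:134601174-134601252, minus strand): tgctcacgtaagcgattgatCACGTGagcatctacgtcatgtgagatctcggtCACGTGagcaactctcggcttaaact
Atp6v0b (chr4:117887330-117887385, minus strand): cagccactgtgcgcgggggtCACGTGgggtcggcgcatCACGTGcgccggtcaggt
Atp6v1a (chr16:44139365-44139410, minus strand): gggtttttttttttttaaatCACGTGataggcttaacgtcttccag
Lamp1 thus held 4 copies within its printed stretch, Mcoln1, Cln3, Gla and Atp6v0b held 2 each, and Atp6v1a held 1. The other 6 genes with the hexamer, each with 1 copy, were Arsa, Atp6v0d1, Atp6v0e, Gaa, Glb1 and Naglu. A match of letters is a description of the sequence and does not show that a factor was bound there.

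In both sexes the macrophage marker genes were bright. Csf1r, the receptor for macrophage colony stimulating factor, averaged 31413 units in females and 31813 in males, and the summed signal of 9 macrophage markers ranged between 135447 and 230832 units in females and between 148536 and 229542 in males. Xist in the 93 females was above every male, and the Y-linked Eif2s3y in every male was above all females. Array medians ranged between 51.1 and 112.4 units in females and between 54.7 and 122.3 in males. A run of 24 males, with 55 to 78 as the code number after "smi" in their titles, had array medians of 76 to 122.3 units, against 54.7 to 78.9 in the other 90 males, and results are also given without these 24. The Gapdh control probe sets had a 3′ to 5′ ratio of 0.917 ± 0.0652 in females and 0.791 ± 0.0302 in males (mean ± SD), and this ratio rose with the code number, with a Spearman correlation of 0.303 in females and 0.612 in males.

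Between the sexes, members of this group went both ways. Of the 42 genes 7 were higher in females and 8 were higher in males, and 27 did not pass the test (2-sided Mann-Whitney test with Bonferroni adjustment over all tested probe sets). Among all tested genes 18.3% were higher in females and 10.7% were higher in males by the same rule, and among all tested probe sets 15.2% and 16.0%. The median ratio of female to male mean signals was 1.00 over the 42 genes, against 1.01 over all tested genes. Hydrolases were higher in females for 5 of 18 and higher in males for 3 of 18, whereas of the 15 pump subunits 1 was higher in females and 5 were higher in males. The 6 genes on the X chromosome (Atp6ap1, Atp6ap2, Gla, Ids, Lamp2 and Tfe3) held 1 call in each direction. Of 5 markers of stromal cells 2 were also higher in males, Dcn (ratio 0.437, adjusted p = 5.41e-07) and Col1a1 (0.616, 0.00118), and the summed signal of the 5 was 258.9 to 52896 units in females (median 2860) and 341.8 to 26336 in males (median 6441). Of the 9 macrophage markers Itgam (0.697, 2.60e-14) and Fcgr1 (0.746, 0.0442) were higher in males. The part of these cells in the differences was not tested. Titles of the males carry a prefix before "smi" that those of the females lack, so sex coincides with the series of titles. Their parts in the differences cannot be told apart.

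Among the pump genes, Atp6ap2, read by its brightest probe set, had the most even difference. It encodes the accessory subunit also known as the prorenin receptor and lies on the X chromosome. Its signals in females were 19116 at the lowest, 23785 at the median and 28658 at the highest, and those in males were 16370, 20761 and 25050. The ranges overlapped, but a female was above a male in 90.6% of all pairs. The means were 23845 ± 1783 in females and 20854 ± 1493 in males, a ratio of 1.14 (adjusted p = 2.01e-19). The dimmest of its 3 probe sets went the other way, with means of 11395.5 in females and 12406.5 in males (0.919, adjusted p = 0.00184). The sexes were also compared in parts, the females in 3 groups of 31 and the males in 3 groups of 38 by code number, and Atp6ap2 was higher in females in all 9 of these comparisons, as were 1.11% of all tested genes. It was the only one of the 42 genes for which this was so. Each group entered 3 of these comparisons, so they are not independent. The numbers of the sexes are separate series, so groups of the same rank are not matched.

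The V1 sector of the pump had 4 of its 8 subunits higher in males and 0 higher in females. Atp6v1g1, a subunit of the peripheral stalk, ranged between 7170 and 16887 units in females (median 12965) and between 10564 and 24384 in males (median 15988). Most males were above most females, with a female higher in 14.5% of pairs, a ratio of means of 0.801 and an adjusted p of 3.41e-14. The 24 males numbered 55 to 78 averaged 19325 ± 2625 units and the other 90 males averaged 15252 ± 1689, and without the 24 the ratio was 0.846. A second probe set of Atp6v1g1 gave 10695 ± 1737 units in females and 11277 ± 1370 in males, a ratio of 0.948 that did not pass the test. Its Spearman correlation with the brightest was 0.271 in females and 0.205 in males. Atp6v1e1, another stalk subunit, averaged 10294 ± 1392 units in females and 11978 ± 1729 in males (ratio 0.859, adjusted p = 3.71e-07). Atp6v1a, the catalytic subunit, averaged 13723 ± 1640 in females and 15155 ± 1566 in males (0.906, 7.99e-05), and Atp6v1f, of the central rotor, had a ratio of 0.907 (1.45e-07). The remaining V1 subunits, Atp6v1b2, Atp6v1c1, Atp6v1d and Atp6v1h, had ratios of 1.00, 0.945, 0.927 and 1.03 and did not pass the test. A dimmer probe set of Atp6v1b2 was higher in males, with 2724 ± 664 units in females and 4737 ± 1231 in males (0.575, 3.22e-24).

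In the V0 sector Atp6v0e, a small membrane subunit, was higher in males, with 12082 ± 1100 units in females and 13206 ± 1232 in males (0.915, adjusted p = 2.41e-06). The d subunit joins the V0 to the V1 sector and has a widely expressed form, Atp6v0d1, and a form known from osteoclasts, Atp6v0d2. Atp6v0d1 ranged between 6686 and 12728 units in females (median 10437) and between 5402 and 12232 in males (median 9288), with a ratio of 1.10 that missed the threshold (adjusted p = 0.362).

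Hydrolases that were higher in females handle sialic acid, gangliosides, glycosaminoglycans, sulfatide and sphingomyelin. Idua, the alpha-L-iduronidase, ranged between 694.1 and 1613 units in females (median 1154) and between 518.6 and 1414 in males (median 956.6), with a ratio of 1.22 (adjusted p = 4.62e-06). A dimmer probe set of Idua gave 411 ± 73.6 units in females and 428 ± 98.7 in males, a ratio of 0.960 that did not pass the test. Its Spearman correlation with the brightest was -0.00717 in females and 0.232 in males. Neu1, the sialidase, ranged between 2328 and 4810 units in females (median 3162) and between 1630 and 3883 in males (median 2650.0), with a ratio of 1.21 (2.96e-09). In both genes the middle values of females lay above those of males while the ranges overlapped widely, a female being higher in 75.7% of pairs for Idua and 79.9% for Neu1. Hexa, the alpha subunit of beta-hexosaminidase, averaged 21386 ± 2288 units in females and 18725 ± 2325 in males (1.14, 1.41e-08). Smpd1, the acid sphingomyelinase, averaged 1139 ± 171 in females and 1002 ± 138 in males (1.14, 0.000684). The smallest of these differences was that of Arsa, the arylsulfatase A, with 1759 ± 201 units in females and 1575 ± 259 in males (1.12, 0.0111), and without the 24 males its ratio was 1.08 and it no longer passed the test.

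The hydrolases higher in males included the largest ratio of all 42 genes. Gla, the alpha-galactosidase A that splits globotriaosylceramide, ranged between 1871 and 6052 units in females (median 3678) and between 2511 and 8492 in males (median 5069). Its means were 3711 ± 988 in females and 5066 ± 1228 in males, a ratio of 0.733 (adjusted p = 2.07e-09), with a female higher in 19.9% of pairs. Ppt1, the palmitoyl-protein thioesterase, ranged between 2676 and 5949 units in females (median 4274) and between 2653 and 7547 in males (median 4967), with a ratio of 0.832 (4.65e-07). Gaa, the acid alpha-glucosidase that degrades glycogen, averaged 1907 ± 271 in females and 2135 ± 345 in males (0.893, 0.00226), and without the 24 males its ratio of 0.905 did not pass the test (adjusted p = 0.122).

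**Figure D1:**
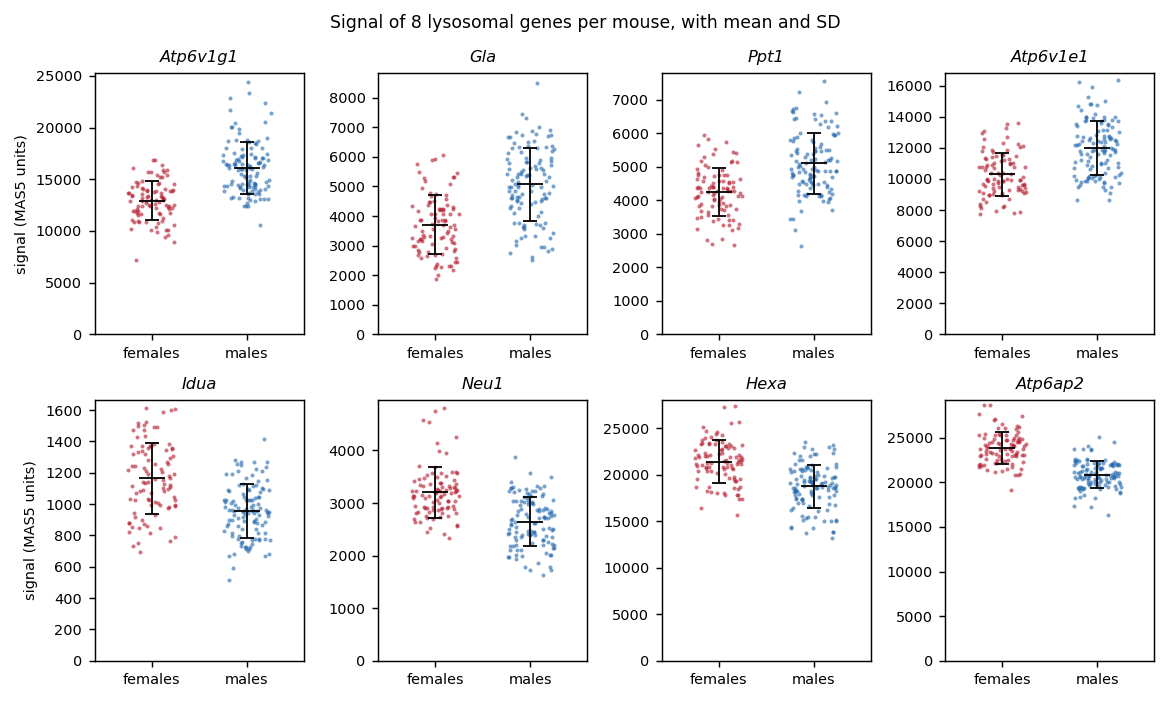
Signal in MAS5 units (vertical axis, linear) of 8 of the genes that differed between the sexes, 1 point per mouse, the 93 females left of the males, with the mean and SD as a bar. Atp6v1g1, Gla, Ppt1 and Atp6v1e1 were higher in males and Idua, Neu1, Hexa and Atp6ap2 were higher in females, and the points of the sexes overlap in each of them.

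Mcoln1, the calcium channel of the lysosomal membrane, was higher in females, with 1559.9 ± 177 units in females and 1405 ± 149 in males (1.11, adjusted p = 3.70e-06). The other membrane proteins did not pass the test. Lamp1 and Lamp2 form much of the glycoprotein coat of the inner lysosomal membrane. Lamp1 had 21525, 29575 and 37692 units at the lowest, median and highest female and 22914, 27874 and 34569 in males (ratio 1.06). Lamp2 had 8811, 14618 and 18497 units in females and 8128, 14835 and 22372 in males (0.972). Of its 3 further probe sets 2 were higher in males, of which the dimmer gave 5000.2 ± 922 units in females and 8120 ± 1904 in males (0.616, 3.85e-26) and the brighter a ratio of 0.841 (0.0248). Psap, whose product is cut into the saposins that help the sphingolipid hydrolases, was close to even, with medians of 37597 in females and 37450.1 in males. Of the transcription factors, Tfeb averaged 571 ± 80.4 units in females and 531 ± 92.8 in males (1.08, adjusted p = 1), and Tfe3 averaged 2365 ± 296 in females and 2178 ± 270 in males (1.09, 0.867). Without the 24 males Tfeb passed the test, with a ratio of 1.12 (adjusted p = 0.0341).

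Many calls were lost, here and over the array, once the 3′ to 5′ ratio of the control probe sets was taken into account. When the log2 ratios of the Gapdh and beta-actin controls entered a limma fit as covariates, 1 of the 8 genes higher in males, Atp6v0e, kept its call, and so did 4 of the 7 higher in females (Atp6ap2, Hexa, Idua and Smpd1). In addition 4 genes were then called higher in females (Atp6v0d1, Atp6v1h, Glb1 and Tpp1) and 1 higher in males (Gm2a). The Mann-Whitney test without the covariates had called 18.3% and 10.7% of all tested genes, so the test changed along with the covariates. The limma fit left 8 of the 42 higher in females and 2 higher in males, and of all tested genes 9.49% and 4.97%. The fitted ratio of Gla was then 1.06, on the other side of 1 (adjusted p = 1), and that of Atp6v1g1 was 0.924 (adjusted p = 1). The Gapdh ratio ranged between 0.803 and 1.12 in females and between 0.731 and 0.863 in males. Sex and this covariate overlap so much that their parts in the lost calls cannot be told apart. The calls also depended on the part of the cohort. The 31 lowest-numbered females against the 38 lowest-numbered males gave 5 calls among the 42, against 15.2% of all tested genes. The middle groups gave 7, against 18.3%, and the highest-numbered groups gave 3, against 10.0%, so these calls were no more frequent in the 42 genes than on the array. The cause of these differences was not tested.

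Over the code number the group fell more often than it rose. The number is the one after "smi" in the title, starting at 33 in females and at 9 in males, and what it stands for is not given in the sources used here. With a straight line fitted to the log2 signal in limma, and Benjamini-Hochberg adjustment, 8 of the 42 genes rose and 21 fell in females, and 5 rose and 27 fell in males. Of all tested genes 29.7% rose and 34% fell in females, and 32.4% rose and 33.2% fell in males, so trends were common everywhere on the array. In both sexes 20 of the 42 fell and 5 rose, against 27.2% and 24.6% of all tested genes, and 0 went in opposite directions. The median slope of the 42 was -0.08 log2 units per 50 numbers in females and -0.11 in males, against -0.01 and -0.00307 over all tested genes. Hydrolases fell in 11 of 18 genes in females and 13 of 18 in males, and pump subunits in 9 of 15 and 11 of 15.

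The steepest falls were in a pair of V0 subunits and a sulfatase. Atp6v0a1, an isoform of the a subunit that forms the proton path, ranged between 144.6 and 5035 units in females (median 1026) and between 148.9 and 5644 in males (median 1343). From the lowest-numbered through the middle to the highest-numbered mice its means were 2837 ± 999, 968 ± 441 and 698 ± 312 in females, and 3162 ± 1086, 1449 ± 686 and 650.4 ± 344 in males. In signal units, most of the fall lay between the lowest-numbered and the middle group in both sexes. The slope was -1.50 ± 0.15 log2 units per 50 numbers in females (SE, adjusted p = 7.27e-16) and -1.46 ± 0.10 in males (2.51e-27). Atp6v0d2 had slopes of -1.51 ± 0.21 in females (6.70e-10) and -0.98 ± 0.15 in males (3.64e-09). Relative to its lowest signal its range was the widest of the group, 229.7 to 15757 units in females (median 1388) and 193.4 to 12794 in males (median 2695). Its group means were 4826, 1279 and 1205 in females and 4786, 2681 and 1663 in males, so that again the lowest-numbered mice were the bright ones. Atp6v0d1, the other d isoform, fell by 0.20 in females (2.04e-06) and by 0.21 in males (3.03e-09).

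Arsb, the arylsulfatase B that acts on dermatan sulfate, averaged 884 ± 416, 278 ± 100.4 and 345 ± 118.5 units in females and 1050.2 ± 422, 412 ± 201 and 370.4 ± 159 in males over the same groups. It fell early and then stayed low, with slopes of -1.0 ± 0.14 in females (4.39e-10) and -0.95 ± 0.09 in males (1.76e-17). Galc, which removes galactose from galactosylceramide, had slopes of -0.61 ± 0.08 in females (5.93e-11) and -0.60 ± 0.06 in males (1.78e-15). Glb1, the acid beta-galactosidase, fell by 0.53 in females and 0.47 in males, and Gusb, the beta-glucuronidase, by 0.50 and 0.42. Of the 11 glycosidases 7 fell in females and 8 in males and 0 rose. Atp6v1h, a regulatory subunit of the V1 sector, had a slope of -0.57 ± 0.05 in females (3.90e-20), with means of 4629, 3246 and 2710 units over the groups.

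Rises were smaller and lay mostly outside the hydrolases. Ids, the iduronate 2-sulfatase on the X chromosome, was the 1 hydrolase that rose, with means of 3659 ± 523, 4500.4 ± 593 and 4809.9 ± 806 units in females and 3446 ± 499, 3675 ± 675 and 4188 ± 661 in males. Its slopes were 0.34 ± 0.04 in females (adjusted p = 8.30e-13) and 0.20 ± 0.03 in males (3.31e-08), opposite in sign to those of Arsb. Lamp2 had a slope of 0.22 ± 0.03 in females (1.42e-08) and 0.16 ± 0.04 in males (0.000735). Its male means of 13892, 13399.5 and 16968 units were not in order, and the 24 males numbered 55 to 78 averaged 12727 units, against 15293 in the other males. In females the rise was called in the brightest probe set of Lamp2 alone, the further ones having slopes of 0.07, 0.04 and 0.10. In males those had slopes of 0.07 (0.0049), 0.12 (0.0123) and 0.09, the last of which did not pass the test (0.0515). Lamp1 rose by 0.12 in females (9.67e-05) and 0.04 in males (0.0164). Scarb2, the receptor that carries glucocerebrosidase to lysosomes, rose by 0.11 in females (0.0454) and 0.18 in males (8.77e-05). Atp6v0e rose by 0.10 in females (0.000254) and 0.06 in males (0.00208). Psap rose in females, with a slope of 0.09 (0.00749), and had a slope of 0.02 in males that did not pass the test (0.406).

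**Figure D2:**
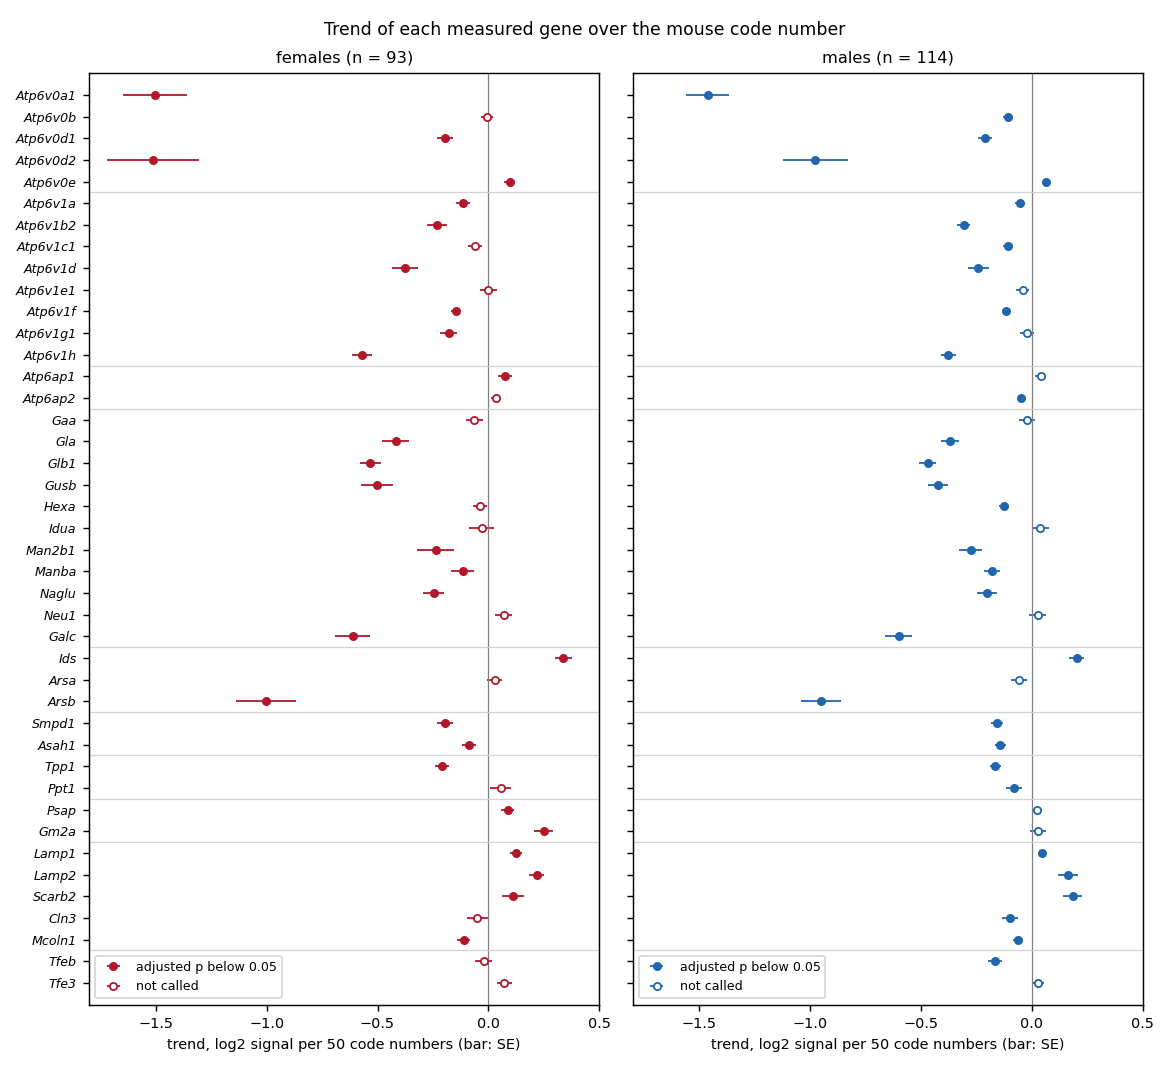
Slope of the log2 signal per 50 code numbers (horizontal axis, bars are SE) for each of the 42 genes in females (left panel, n = 93) and males (right panel), with filled points where the adjusted p was below 0.05. Atp6v0a1, Atp6v0d2 and Arsb lie farthest to the left in both panels, and Ids, Gm2a and Lamp2 lie farthest to the right in females.

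Tfeb fell in males, with a slope of -0.17 ± 0.03 (adjusted p = 5.32e-06), and its slope of -0.02 in females did not pass the test (0.657). Tfe3 had slopes of 0.07 in females (0.0608) and 0.03 in males (0.367). Genes with and without the hexamer CACGTG in their promoters both fell more often than they rose. Of the 12 with it, 2 rose and 6 fell in females and 2 rose and 8 fell in males. Of the 24 without it, 6 rose and 10 fell in females and 3 rose and 14 fell in males. Lamp1, with 4 copies, rose in both sexes, and Mcoln1 and Gla, with 2 each, fell in both. Cln3 and Atp6v0b, also with 2 each, fell in males and were not called in females.

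The slopes of females and males differed in 5 of the 42 genes by a test of the difference itself (limma, sex by number term), and in 8.49% of all tested genes. Gm2a, the activator that presents GM2 ganglioside to beta-hexosaminidase, had a slope of 0.25 ± 0.04 in females and 0.03 ± 0.04 in males (difference 0.22, adjusted p = 0.00749). Its means over the number groups were 4809.9, 5529.5 and 5861 units in females and 5805, 5095 and 6042 in males, with 4766 in the 24 males. Atp6v1h fell more steeply in females, the difference being -0.20 (0.0184). Atp6v1g1 fell in females and did not pass the test in males (difference -0.16, 0.0305), where the middle group was the brightest, with 15233, 18383 and 14713 units. The second probe set of Atp6v1g1 fell in both sexes, with slopes of -0.20 in females (6.21e-06) and -0.14 in males (6.79e-08). Atp6v0b, of the proteolipid ring, and Atp6ap2 fell in males and did not pass the test in females, with differences of 0.10 (0.0394) and 0.08 (0.0235). Neither of the last pair was called when the arrays were scaled to the same median.

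**Figure D3:**
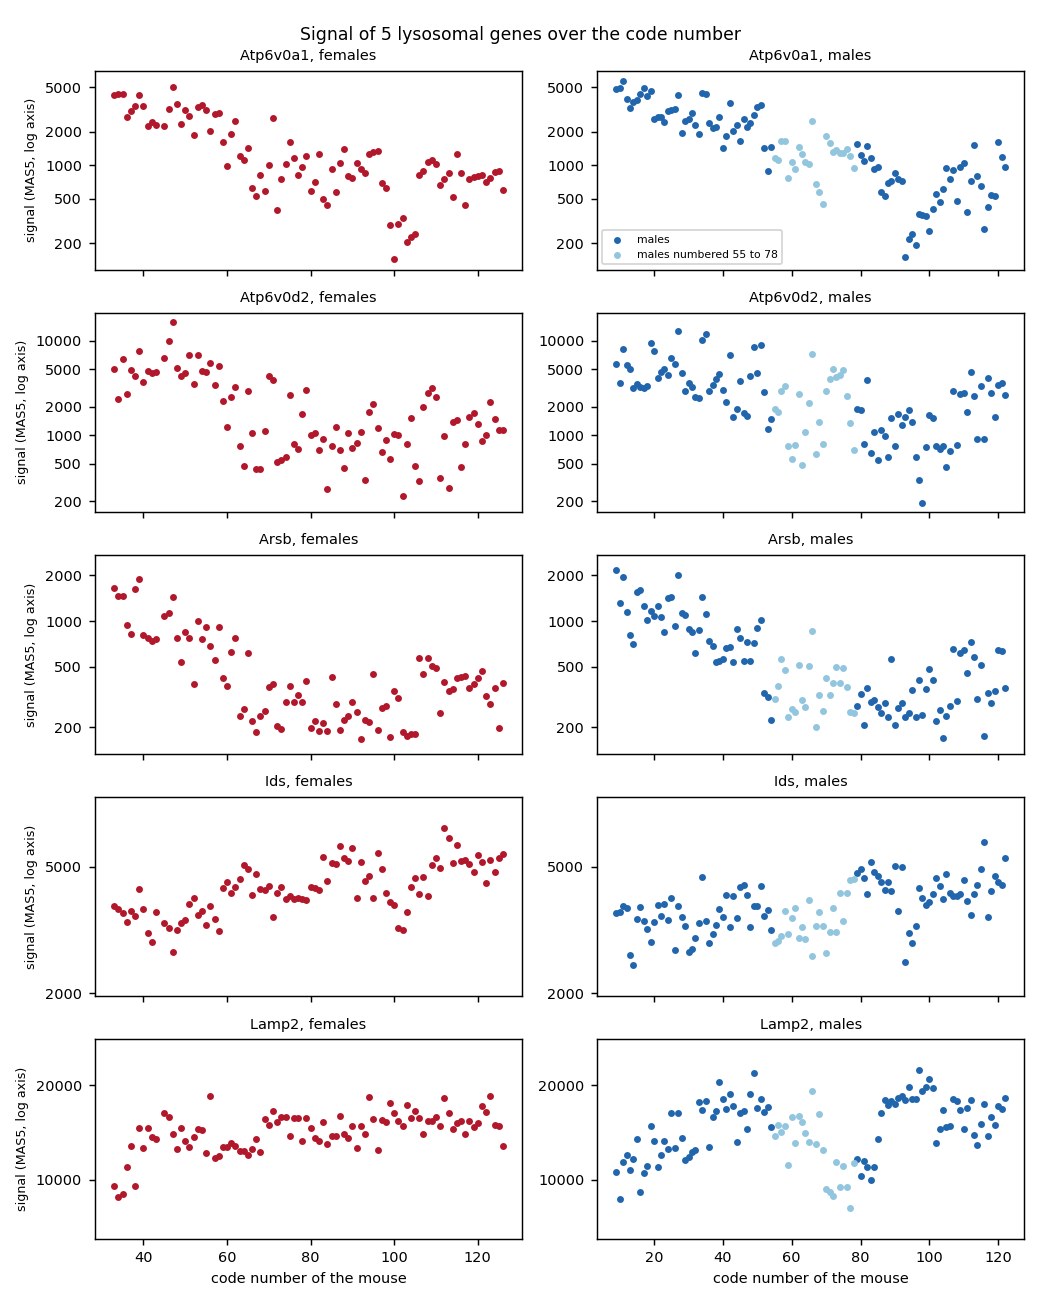
Signal in MAS5 units (vertical log axis) of Atp6v0a1, Atp6v0d2, Arsb, Ids and Lamp2 against the code number (horizontal axis), 1 point per mouse, females in the left column and males in the right, with the 24 males numbered 55 to 78 in light blue. Atp6v0a1, Atp6v0d2 and Arsb are brightest at the low numbers, Ids rises slowly, and Lamp2 in males dips in the middle before the highest values.

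Other measures moved with the code number too. All 4 measured markers of dividing cells (Mki67, Top2a, Cdk1 and Birc5) fell in both sexes, and their summed signal, 939.3 to 14187 units in females and 1036 to 14462 in males, had a Spearman correlation with the number of -0.858 in females and -0.785 in males. The summed signal of the 7 neutrophil markers with a probe set, of which 2 passed the filter on low signals, was 410.0 to 19421 units in females and 422.2 to 32593 in males, and it rose with the number (0.672 and 0.688). With the 3′ to 5′ ratios as covariates, 18 of the 21 falls and 7 of the 8 rises in females kept their call, and 21 of the 27 falls and 3 of the 5 rises in males. With added calls 7 rose and 18 fell in females and 5 rose and 22 fell in males, against 26.8% and 32% of all tested genes in females and 25.1% and 25.5% in males. The part of dividing cells, neutrophils and RNA quality in the trends was not tested.

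Hydrolases and pump subunits followed each other over the mice in females. The log2 signals of the 18 hydrolases and of the 15 pump subunits were each standardised within a sex and averaged into a score per mouse. In the 93 females the scores had a Pearson correlation of 0.682 (Spearman 0.623), 0.658 without the 2 mice farthest from the median, and 0.602 after the line over the code number was taken out. Among the 90 males outside the run of 24 it was 0.692, and 0.534 after the line was taken out, whereas within the 24 males it was 0.0437, and over all males 0.521. In these 24 the hydrolase score fell with the number (Spearman -0.789), whereas the pump score had a correlation of 0.103 with it. The correlation of the 2 scores was also low in the 38 lowest-numbered males, numbered 9 to 46 and outside that run, at 0.225. It was 0.709 in the 38 highest-numbered males, and 0.556 and 0.791 in the lowest-numbered and highest-numbered females. All the genes share 1 array per mouse and its scaling, so these correlations are given as descriptions without a test. The Gapdh 3′ to 5′ ratio had Spearman correlations with the hydrolase and pump scores of -0.232 and -0.333 in females. In males they were -0.643 and -0.400. Those of the beta-actin ratio were -0.184 and -0.415 in females and -0.0596 and -0.407 in males. Those of the array median were -0.366 and -0.360 in females and -0.254 and -0.305 in males. The part of these measures was not tested.

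**Figure D4:**
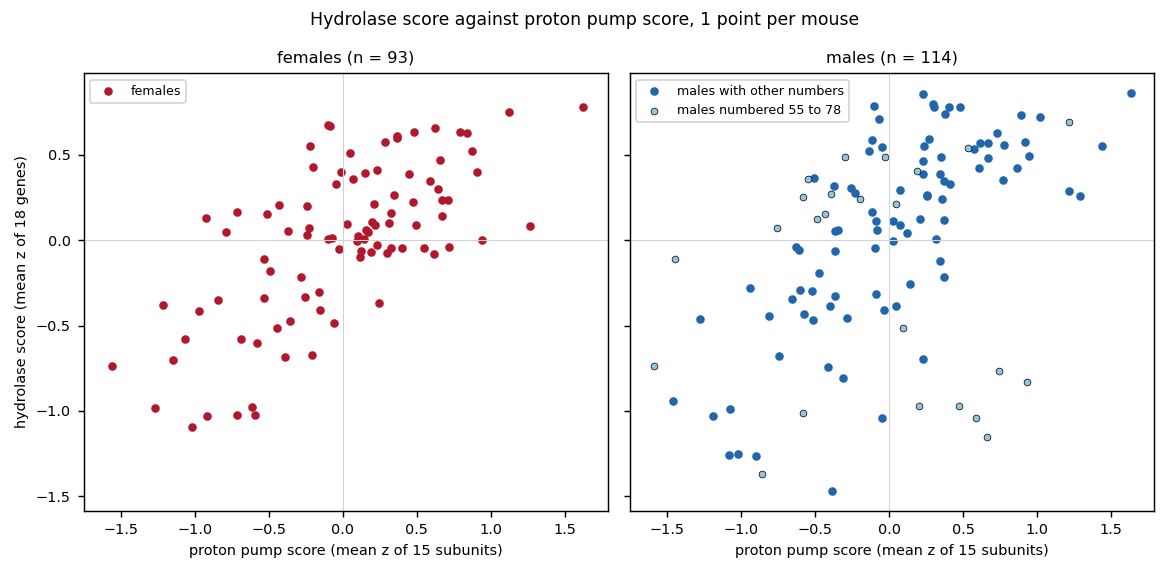
Hydrolase score (vertical axis) against proton pump score (horizontal axis) per mouse, both mean standard deviations from the mean of the sex, females on the left (n = 93) and males on the right, the 24 males numbered 55 to 78 in light blue. The points run along a diagonal in females and in the other 90 males, with correlations of 0.682 and 0.692, and the 24 males form a cloud with a correlation of 0.0437. Within the 38 lowest-numbered of the other males the correlation was 0.225.

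Single pairs of genes were related more loosely. The mean pairwise Pearson correlation was 0.159 in females and 0.314 in males among hydrolases, 0.322 and 0.366 among pump subunits, and 0.187 and 0.197 between the 2 sets, against 0.00258 and 0.00539 over all tested genes. In these means, correlations of opposite sign offset each other. With the line over the code number taken out, they were 0.123 in females and 0.259 in males among hydrolases. Among pump subunits they were then 0.331 and 0.333, and between the sets 0.153 and 0.113. The mean over all tested genes was then 0.00258 and 0.00613. By the mean of the Spearman correlations in females and in males, the subunits closest to the pump score, to which they contribute, were Atp6v1b2, a nucleotide-binding subunit (0.785 in females and 0.844 in males), and Atp6v1c1, a stalk subunit (0.761 and 0.815). In females alone Atp6v1f was the closest, at 0.827, against 0.632 in males. Galc (0.814 and 0.863), Tpp1, the tripeptidyl peptidase (0.818 and 0.703), and Man2b1, the lysosomal alpha-mannosidase (0.685 and 0.823), lay closest to the hydrolase score by the same mean, although Glb1 came before both Tpp1 and Man2b1 in males, with 0.841 and 0.434 in females. Gla went with the pump score (0.805 and 0.828) more than with the hydrolase score (0.514 and 0.497), although only the hydrolase score contains it. Arsb did likewise, with 0.637 and 0.731 for the pump score and 0.262 and 0.567 for the hydrolase score. Ids was negative with its own set, at -0.519 in females and -0.356 in males.

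All 10826 tested genes outside the group were ranked by the mean of their correlations in females and in males. Gas6, a ligand of the receptor Mertk, was the most like the hydrolase score, with a Spearman correlation of 0.843 in females and 0.926 in males. Tpra1, which had 0.858 in females, Gnpda1, Cnrip1 and Renbp followed. Elovl1, a fatty acid elongase, was the most like the pump score (0.855 and 0.842), before Rnh1, Lat2, Plek and Ttyh2, of which Ttyh2 had the higher value in females (0.899) and Rnh1 in males (0.851). For Atp6v0d2 they were Egr2 (0.928 and 0.916), Itgax (0.923 and 0.921), Mmp12 (0.926 and 0.903), Lpl and Niban2. Of the osteoclast markers, Dcstamp and Itgb3 followed Atp6v0d2 (0.724 and 0.747 in females, 0.754 and 0.702 in males), and both were dim, at 58.6 to 169 units on average in either sex. The brighter ones went otherwise, Acp5 with correlations of 0.340 in females and 0.0861 in males, Ctsk with 0.111 and 0.464, Mmp9 with -0.297 and -0.241, and Nfatc1 with -0.519 and -0.403. Calcr, Oscar and Ocstamp averaged 20.7, 53.4 and 11 units in females and 28.1, 53.4 and 8.93 in males, below the filter on low signals.

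Several genes were read by more than 1 probe set, which gave a check on each value. The 42 genes had 98 probe sets on the array, of which 83 passed the filter on low signals, and 28 genes had more than 1 of these. The 41 further probe sets had a median Spearman correlation with the brightest of their gene of 0.439 in females and 0.553 in males, against 0.384 and 0.424 over all genes, with a range of -0.314 to 0.965 in females and -0.277 to 0.985 in males. Of these 41, 7 were higher in females and 17 were higher in males. The further probe sets of all genes also leaned to males, with 11.9% higher in females and 24.2% higher in males. The brightest probe sets of Atp6v0b, Atp6v1e1, Atp6ap1, Mcoln1, Atp6ap2 and Gaa are of the kind whose probes can match transcripts of more than 1 gene.

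Atp6v0a1 gave the clearest case of probe sets that differed. Its brightest probe set did not pass the test between the sexes, with 1501 ± 1155 units in females and 1754 ± 1299 in males (adjusted p = 1). A dimmer one gave 249 ± 199 units in females and 1039 ± 790.1 in males (male to female ratio 4.16, adjusted p = 1.10e-16), and another gave 301 ± 225 and 851 ± 655, in the same order (2.83, 2.02e-10). Within each sex, however, both followed the brightest over the mice, with Spearman correlations of 0.892 and 0.888 in females and 0.976 and 0.985 in males, and fell with the code number, with slopes of -1.50 and -1.39 in females and -1.57 and -1.50 in males. The remaining probe set, with a female to male ratio of 0.724, passed neither test. The second probe set of Atp6v0d2 behaved alike, with a male to female ratio of 2.07 (4.52e-05) and correlations of 0.965 in females and 0.976 in males, and so did that of Galc (2.21, 1.25e-09). For these genes the fall with the number was called in the probe sets named and the difference between the sexes in the dimmer ones alone.

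Gla was higher in males by its second probe set as well, with a male to female ratio of 1.69 (1.55e-18), and Ppt1 by its second (1.31, 5.74e-13). Atp6ap2 was higher in females by 2 probe sets, with ratios of 1.14 and 1.12, and lower in females by the third, at 0.919 (adjusted p = 0.00184). Both of those higher in females are of the kind whose probes can match transcripts of more than 1 gene, and the third is not. Gaa was higher in males by its brightest probe set, at 0.893, and higher in females by its second, at 1.16 (0.00156). Dim probe sets of Atp6v1e1 and Smpd1 also went against the brightest ones. The 3 further probe sets of Ids were 1.33, 2.16 and 1.85 times higher in males, whereas its brightest had a female to male ratio of 1.15, just short of the threshold (adjusted p = 0.0508), and its rise with the number passed the test in the brightest probe set alone. Over the code number, probe sets of Man2b1 and Mcoln1 went in opposite directions in both sexes, those of Atp6v1e1 and Atp6v1h in females, and those of Cln3, Ids and Ppt1 in males.

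**Figure D5:**
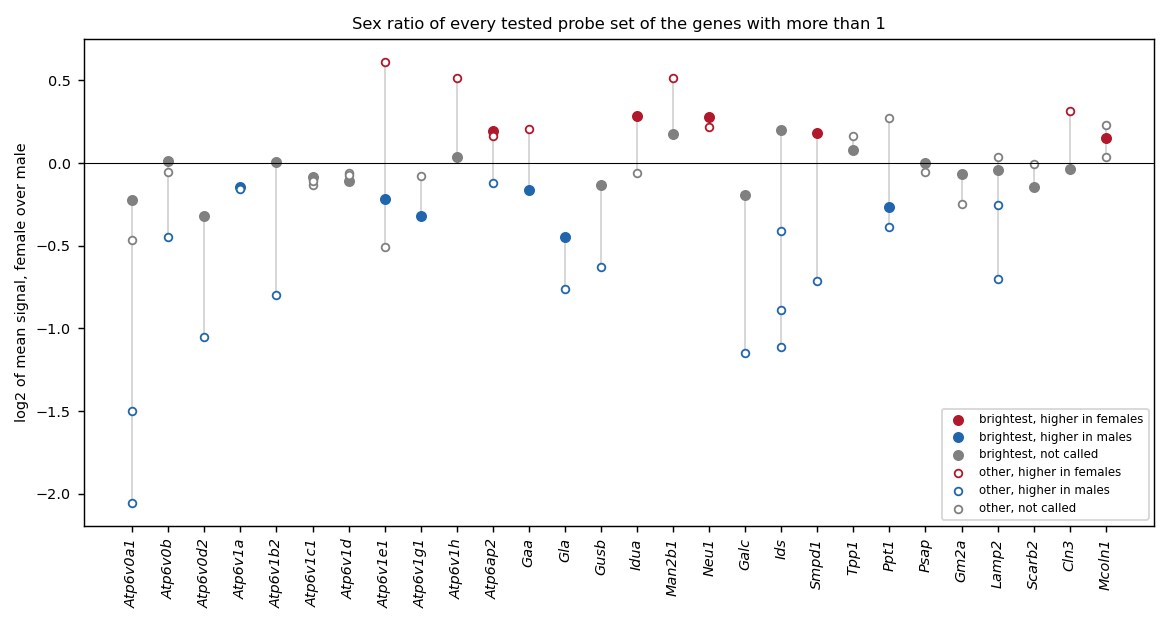
Log2 ratio of female to male mean signals (vertical axis) for every tested probe set of the 28 genes with more than 1 (horizontal axis), filled for the brightest probe set of each gene and open for the others, in red or blue where called higher in females or males and in grey where not called. The further probe sets of Atp6v0a1, Atp6v0d2, Galc and Ids that were called lie well below their brightest one, on the side of males.

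Single mice rarely stood apart. Signals more than 4 scaled median absolute deviations from the median of the sex numbered 17 of 3906 in females (0.435%, against 0.638% over all tested genes) and 10 of 4788 in males (0.209%, against 0.480%). They fell on 10 females and 7 males. Man2b1 held more of them than any other of the 42 genes, all low, with 7 females at 3154 to 4964 units against a female median of 11114, and 3 males at 2974 to 3588 against a male median of 10052. Gusb had 4 low females, at 3569 to 3872 units against a median of 10014. A run of 4 females with neighbouring numbers in the highest group held several members low, and between 3.82% and 4.87% of all tested genes were outlying in them.

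Genes around the group, from lists of the pathway, moved in both directions as well, and their counts stand beside the 18.3% and 10.7% of all tested genes called higher in females or higher in males, and the 34% and 33.2% that fell with the number. Of 12 further lysosomal hydrolases and their helpers 2 were higher in females and 0 in males, namely Sumf1, which activates the sulfatases (4093 ± 410.0 units in females and 3146 ± 348 in males, ratio 1.30, adjusted p = 1.37e-26), and Sgsh, the heparan N-sulfatase (1.24, 0.000172). Of these 12, 7 fell with the number in females and 7 in males, among them Galns, with slopes of -0.78 and -0.56, and 2 rose in each sex. Of 5 further pump subunits Atp6v0a2, another isoform of the a subunit, was higher in females (ratio 1.41, 4.93e-16), and it rose with the number by 0.27 in females and 0.33 in males, opposite to Atp6v0a1. Of 14 genes of delivery and sorting 5 were higher in females and 2 in males, with the largest ratios in Gga3 (1.27, 1.95e-17), an adaptor of vesicle traffic, Hgs (1.23, 1.98e-09), which sorts ubiquitinated cargo on endosomes, and Gga1 (1.20, 9.94e-06), a relative of Gga3. Of 20 further membrane proteins 5 were higher in females and 5 in males, among them Slc17a5, the sialic acid exporter (2404 ± 374 units in females and 1561 ± 319.9 in males, 1.54, 6.17e-25), Lamtor1 (1.13, 9.44e-06) and Lamtor5 (0.850, 9.10e-08), which belong to the Ragulator complex. Of 8 relatives and controllers of Tfeb, 3 were higher in females and 2 in males, with Mtor, the kinase that keeps Tfeb in the cytosol, at 1.20 (3.18e-12), Mitf at 1.13 (0.000115) and Tfec at 0.702 (0.000185).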

How the data were processed

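The authors scaled each Affymetrix 430v2 array with MicroArray Suite 5.0, and the deposited values are signal intensities on a linear scale, 1 array per mouse, used here without further scaling. Detection calls, the genotype table and LOD scores were not used here. Of 45037 probe sets, 64 control sets aside, 22059 with a signal of at least 78 units in 69 mice were tested. Gene symbols came from the array's annotation and the RefSeq gene table of GRCm38.p6. The sex of each mouse came from its label, and a 2-sided Mann-Whitney test was run on the deposited signals with Bonferroni adjustment at 0.05, as in the authors' methods, with the ratio of means as the effect. Trends were fitted in limma to the log2 of the deposited signal + 1, with Benjamini-Hochberg adjustment at 0.05 over all tested probe sets. Each sample is 1 mouse, no arrays were identical, and the number of arrays limits the precision.

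Alternatives were the minimum signal, pseudocount, array scaling, adjustment, limma in place of the rank test, 3′ to 5′ ratios as covariates, parts of the code numbers, the other probe sets, and leaving out the males numbered 55 to 78. The members, lists and alternatives were chosen with earlier results of these data known, and the limit of 5 deviations, the alternatives for the difference of slopes and the motif GTCACGTG were added after the data were seen. Values in full are given for up to 6 genes with the largest ratios in each direction, up to 4 with the largest slopes in each direction and sex, Lamp1, Lamp2, Psap, Atp6v0d1, Atp6v0d2, Tfeb, Tfe3, and genes whose probe sets were called in opposite directions. Other values named were chosen after they were seen. The Mann-Whitney test and the fit of the trend in females were tested on simulated data, and the other fits were not. Fits ran in limma 3.58.1 under R 4.3.3. Tests and tables used scipy 1.17.1, pandas 2.3.3 and numpy 2.4.6 in Python 3.11.15, and plots used matplotlib 3.10.9.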

Additional observations from a re-analysis of the deposited data

Results flagged for a closer look

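For 5 of the 42 genes the change with the code number differed between females and males by a test of the difference itself. The same test called 8.49% of all tested genes. The slope of females minus that of males, in log2 units per 50 numbers, was 0.22 for Gm2a, -0.20 for Atp6v1h, -0.16 for Atp6v1g1, 0.10 for Atp6v0b and 0.081 for Atp6ap2. Gm2a, Atp6v1h and Atp6v1g1 were called again after the arrays were scaled to the same median, and all 5 without the males numbered 55 to 78, when Ids and Tfeb were called in addition. The shares of all tested genes called under these alternatives are not given here. The code numbers of the sexes cover different spans, starting at 33 in females and at 9 in males.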

How the results depend on the processing

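Of the 42 genes, 15 were called between the sexes, 7 higher in females and 8 in males. With Benjamini-Hochberg adjustment 32 were called, 16 higher in females and 16 in males. The shares of all tested probe sets were then 30.9% and 33.4%. With the 3′ to 5′ ratios as covariates 2 were higher in males, and Gla lost its call, with a fitted ratio of 1.06 that did not pass the test. Among the 41 other probe sets 24 were called, 17 of them higher in males. Within parts of the cohort, written as females against males, the lowest against the lowest numbers gave 5 calls (2 higher in females, 3 in males), and the middle against the middle 7 (2 higher in males). The highest against the highest gave 3 (1 higher in females, 2 in males), the lowest against the middle 2 higher in males, and the middle against the highest 9 (2 higher in males). The lowest against the highest gave 15 higher in females and 4 in males, the highest against the lowest 3 higher in females and 17 in males, and the highest against the middle 4 higher in females. Of all tested probe sets these comparisons called between 12% (highest against highest) and 43.4% (highest against lowest).

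The trend was called in 19 genes in females without the lowest numbers, 4 of them rising, and 13 fell without the highest numbers. In males 17 fell without the lowest numbers. Over all males, 8 of the 41 other probe sets rose, as did 7577 of all 22059 tested probe sets. Of all tested probe sets 32.5% had a trend in females without the lowest numbers, against 62.2% with them, 24.8% fell in females without the highest, and 26.2% fell in males without the lowest. Cln3 in males lost its call with the covariates, with a slope of 0.0091 that did not pass the test. The slopes differed between the sexes in 3 genes after scaling the arrays. The correlation of the hydrolase and pump scores was 0.770 in females and 0.598 in males after scaling and 0.602 and 0.336 for residuals from the line. Over the low, middle and high numbers it was 0.556, 0.585 and 0.791 in females and 0.225, 0.202 and 0.709 in males, and without the 2 mice farthest from the median 0.346, 0.432 and 0.786 in females and 0.0780, 0.136 and 0.688 in males. It was 0.0437 in the males numbered 55 to 78 and 0.692 in the other males. At 5 deviations 3 signals in females and 3 in males were outlying. The cause of these changes was not tested. The other counts of calls, under the remaining alternatives, stayed within 1.5 times those given. No paired analysis was possible because the numbers belong to single mice and link no female to any male.

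Precision is limited by the number of arrays, by probe sets near background, by the Gapdh 3′ to 5′ ratio, 0.803 to 1.12 in females and 0.731 to 0.863 in males, and by the code number, whose meaning is not given.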
